A study of Danio rerio with 23 samples.

Results

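The ferritin heavy chain genes of the zebrafish were followed in bulk RNA-seq libraries of retinae after light-induced retinal damage (LIRD) and of control retinae (CTRL). The family was taken by name, as the rows of the count table listed under fthl27, fthl28 (ENSDARG00000076221), fthl29, fthl30, fthl31, fth1a and fth1b, which gave 7 of the 25281 genes of the table and 7 of the 22503 genes that passed the filter on low counts. The gene fth1b was matched to the row listed as FTH1, without the paralog letter (ENSDARG00000007975). The family was chosen by the measured LIRD to CTRL difference of fthl28, which stood among the 9 genes that passed the thresholds between LIRD and CTRL, so its test in that contrast supports nothing here and its values are given as a description.

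The table held 8 LIRD libraries, carrying the replicate numbers 1, 2, 4, 5, 6, 9, 10 and 11, and 9 CTRL libraries, carrying 1, 2, 3, 4, 5, 6, 8, 10 and 11. A further 6 samples of the labels were not analysed here. The published methods excluded outlying samples that did not cluster with their replicates. The p-values and separations below therefore hold for selected libraries. The labels and the published methods differ on the animals. The labels name adult fish under 15000 lux for 24 h, dissected at the end of the exposure, with controls under standard light. The published methods name larvae exposed at 4 days post fertilization to 50000 lux for 3.5 h and left to recover for 48 h in darkness, with 50 retinae pooled in a library. The genotype behind each library was not given in the sources used here beyond wild-type TU fish and a Tg(fli:gal4;UAS:mCherry) line kept for the work, and nothing in the labels ties a library to a separate clutch, so p-values measure the spread between these libraries.

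Ferritin is a hollow protein shell that stores iron. Its heavy chain carries the ferroxidase centre, which oxidizes ferrous to ferric iron before storage, and so keeps ferrous iron from feeding the Fenton reaction that yields hydroxyl radicals. In mammals, ferritin synthesis is set mainly at translation by iron regulatory proteins that bind the messenger RNA, transcription of the heavy chain gene responds to oxidative stress through Nrf2, and stored iron is released when NCOA4 carries ferritin to the lysosome. Photoreceptors use iron heavily, and excess retinal iron is known to damage them. In bulk retina, fewer cells of a type and less RNA per cell cannot be told apart, and messenger RNA levels do not give protein levels.

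In the RefSeq annotation of GRCz12tu, the 5 fthl genes lay next to each other on 1 chromosome, in the order fthl27, fthl28, fthl30, fthl31, fthl29, whereas fth1a and fth1b each lay on another chromosome. Transcript lengths were not used, so levels are in CPM (counts scaled to a common library size) and are compared between libraries for 1 gene, not between genes. The fthl genes are paralogs, and whether reads that map to several of them were kept was not given in the sources used here, so counts could be split between them and the values of single fthl genes are uncertain to that extent.

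The libraries held between 97506021 and 150347385 counts in LIRD and between 70932504 and 144932681 in CTRL. Counts of a member in a library lay between 86 and 400 for fthl29 and between 41795 and 127790 for fth1a, with the other 5 genes in between. The sample index numbers in the library names were divided here into 2 runs. The run S7 to S10 held replicates 1 and 2 of each condition, with CTRL at S7 and S9 and LIRD at S8 and S10. The run S11 to S29 held 6 LIRD and 7 CTRL libraries. There CTRL had numbers within S11 to S20 and LIRD within S22 to S29, so condition and index order cannot be told apart. The labels do not name these runs as batches. LIRD replicates 5 and 11, and CTRL replicates 3 and 11, were closer to each other (chi-square per degree of freedom of 12.22 and 15.35) than any other pair of libraries of a condition (75.67 or more), but differed by more than sampling noise and were kept as separate libraries.

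All 7 members had a higher fitted level in LIRD than in CTRL, where 53.8% of all genes tested were higher. A gene was called at a fold change over 1.5 in either direction with a false discovery rate (FDR) under 0.05 in the quasi-likelihood test of edgeR. Of the 7 members 1 was called, fthl28, where 0.04% of all genes were called in either direction, and nothing is read from that count because it chose the family. At an unadjusted p under 0.05, 3 of the other 6 members were higher and 0 lower, beside 4.9% of all genes higher and 2.74% lower, and 0 of these 6 were called (smallest FDR 0.151 in edgeR). The median log2 fold change was 0.39 over these 6 genes, 0.46 over the 7 and 0.02 over all genes tested.

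The gene fthl28 (ferritin, heavy polypeptide-like) was at 42.2, 41.4, 28.5, 30.2, 15.5, 28.7, 22.5 and 28.6 CPM in LIRD replicates 1, 2, 4, 5, 6, 9, 10 and 11. In CTRL replicates 1, 2, 3, 4, 5, 6, 8, 10 and 11 it was at 12.6, 12.3, 13.7, 13.6, 7.53, 5.17, 11.9, 15.003 and 13.4 CPM. Every LIRD library lay above every CTRL library, as in 0.0622% of all genes tested. Nothing is read from that share, because the separation belongs to the difference that chose the family. The margin was narrow at its closest point, with 15.5 CPM in LIRD replicate 6 and 15.003 CPM in CTRL replicate 10. The means were 29.7 ± 8.88 CPM in LIRD (SD, n = 8) and 11.7 ± 3.22 CPM in CTRL (SD, n = 9), a log2 fold change of 1.34 with a standard error (SE) of 0.21, or 2.54-fold.

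**Figure D1:**
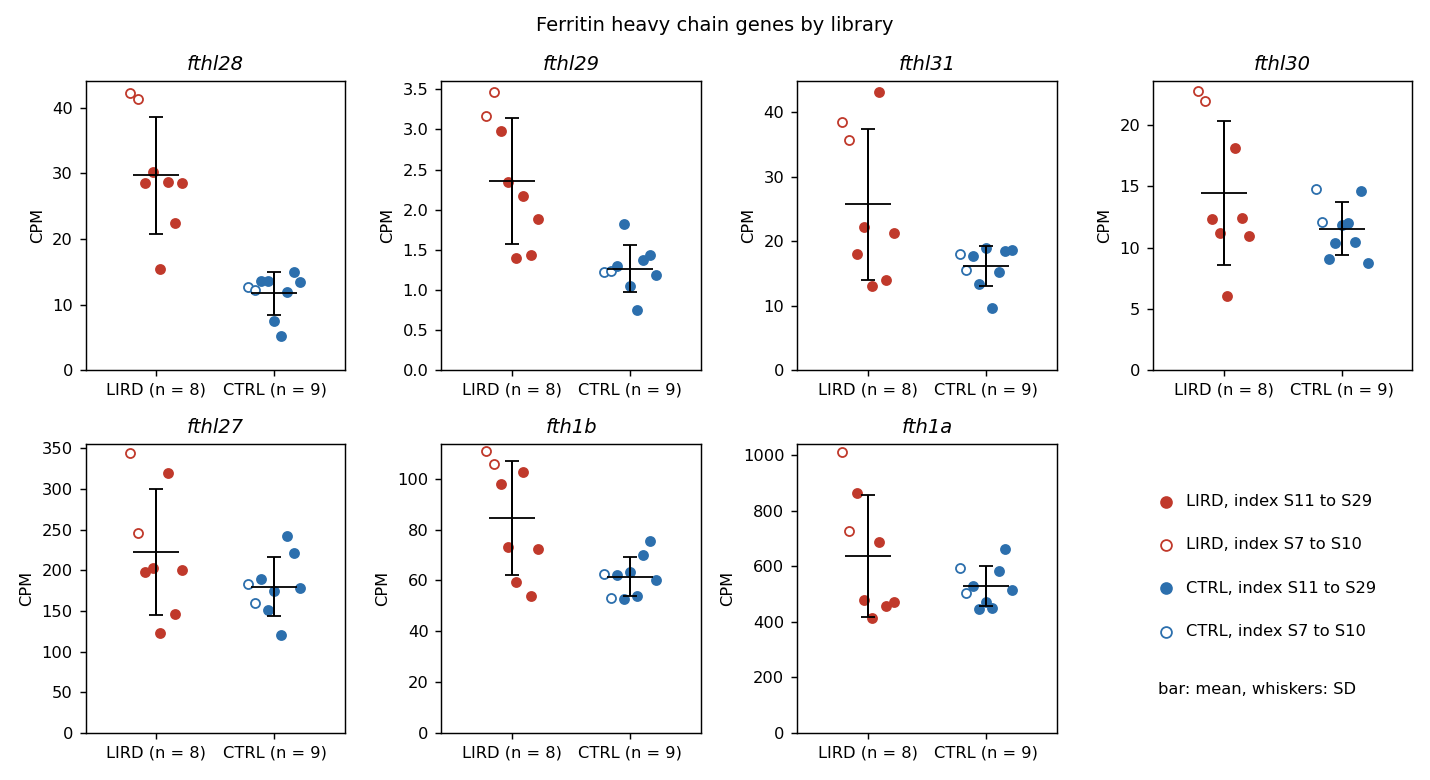
CPM of each ferritin heavy chain gene in each library, with LIRD (n = 8, red) left of CTRL (n = 9, blue). Bars give the mean and whiskers the SD, and open symbols are the libraries with index S7 to S10. The 8 LIRD values of fthl28 lie between 15.5 and 42.2 CPM, above the CTRL values of 5.17 to 15.003 CPM, while the groups overlap in the other 6 genes.

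The fewest counts of the family belonged to fthl29, which lay between 1.39 and 3.47 CPM in LIRD with a median of 2.25 CPM, against 0.75 to 1.83 CPM in CTRL with a median of 1.23 CPM. All 8 LIRD libraries were above the CTRL median and 6 were above every CTRL library. For fthl29 the log2 fold change was 0.90 (SE 0.20), 1.86-fold, with an FDR of 0.151 in edgeR. In 24 of 27 alternative fits fthl29 stayed uncalled. Its FDR was 0.6 in S11 to S29 alone and 0.417 with the replicate number as a block (both edgeR), and 0.215 in limma-voom. It passed the thresholds without LIRD replicate 10 (FDR 0.0393 in edgeR), in DESeq2 (FDR 0.00649) and in S7 to S10 alone (FDR 0.0104 in edgeR).

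For fthl31, LIRD libraries lay between 12.97 and 43.1 CPM with a median of 21.7 CPM, and CTRL libraries between 9.71 and 18.96 CPM with a median of 17.8 CPM. The groups overlapped, with 5 LIRD libraries above every CTRL library. The log2 fold change was 0.67 (SE 0.22, FDR 0.459 in edgeR), and the LIRD libraries were the most scattered of any member, with a coefficient of variation of 45.5% against 18.9% in CTRL.

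The other pair of fthl genes had smaller fitted fold changes. Levels of fthl27 were 223 ± 77.6 CPM in LIRD (SD, n = 8) and 180 ± 36.3 CPM in CTRL (SD, n = 9), and 3 LIRD libraries exceeded all CTRL libraries. The log2 fold change of fthl27 was 0.31 (SE 0.18, FDR 0.697 in edgeR). Levels of fthl30 were 14.5 ± 5.87 CPM in LIRD (SD, n = 8) and 11.6 ± 2.15 CPM in CTRL (SD, n = 9), with 3 LIRD libraries above and 1 below every CTRL library. The log2 fold change of fthl30 was 0.32 (SE 0.21, FDR 0.697 in edgeR). Both genes lie on either side of fthl28 on the chromosome. The 95% interval of the log2 fold change, from the SE and a normal distribution, included 0 for both. It was -0.06 to 0.67 for fthl27 and -0.08 to 0.73 for fthl30.

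The gene fth1b, a zebrafish counterpart of mammalian FTH1, lay between 53.7 and 111 CPM in LIRD with a median of 85.7 CPM, against 52.8 to 75.7 CPM in CTRL with a median of 62.0 CPM. In LIRD, 4 libraries were above every CTRL library and none was below all of them. The log2 fold change was 0.46 (SE 0.14, FDR 0.363 in edgeR). Its paralog fth1a, which took most of the family's counts, lay between 413 and 1012 CPM in LIRD with a median of 582 CPM, against 447 to 664 CPM in CTRL with a median of 514 CPM. The LIRD libraries of fth1a spread beyond CTRL on both sides, with 4 above and 1 below every CTRL library. For fth1a the log2 fold change was 0.27 (SE 0.17, FDR 0.697 in edgeR).

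Summed over the 7 genes, the family reached 1018 ± 326 CPM in LIRD (SD, n = 8, range 632 to 1574) and 811 ± 116 CPM in CTRL (SD, n = 9, range 653 to 1011), and the groups overlapped. Within the family's counts, 1 share did not overlap between the groups. The gene fthl28 made up 2.97 ± 0.57% of them in LIRD (2.33% to 3.69%) and 1.44 ± 0.36% in CTRL (0.79% to 1.97%), without overlap, as a description of the gene that chose the family. This share uses no scaling between libraries. The shares of the other members overlapped. For fthl29 the share was 0.23 ± 0.04% in LIRD and 0.16 ± 0.04% in CTRL. Only CTRL replicate 4, at 0.26%, was above the lowest LIRD library (0.18%). In LIRD and CTRL, fthl31 was at 2.49 ± 0.66% and 2.00 ± 0.33%, and fthl30 at 1.41 ± 0.32% and 1.44 ± 0.27%. Likewise fth1a was at 62.6 ± 4.601% and 65.3 ± 2.09%, fthl27 at 21.9 ± 3.39% and 22.1 ± 2.07%, and fth1b at 8.44 ± 0.81% and 7.61 ± 0.49%. Set against its neighbour, fthl28 had 13.7 ± 2.41 counts per 100 counts of fthl27 in LIRD (8.983 to 16.84) and 6.52 ± 1.64 in CTRL (4.31 to 8.986), so that the lowest LIRD library and the highest CTRL library met.

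**Figure D2:**
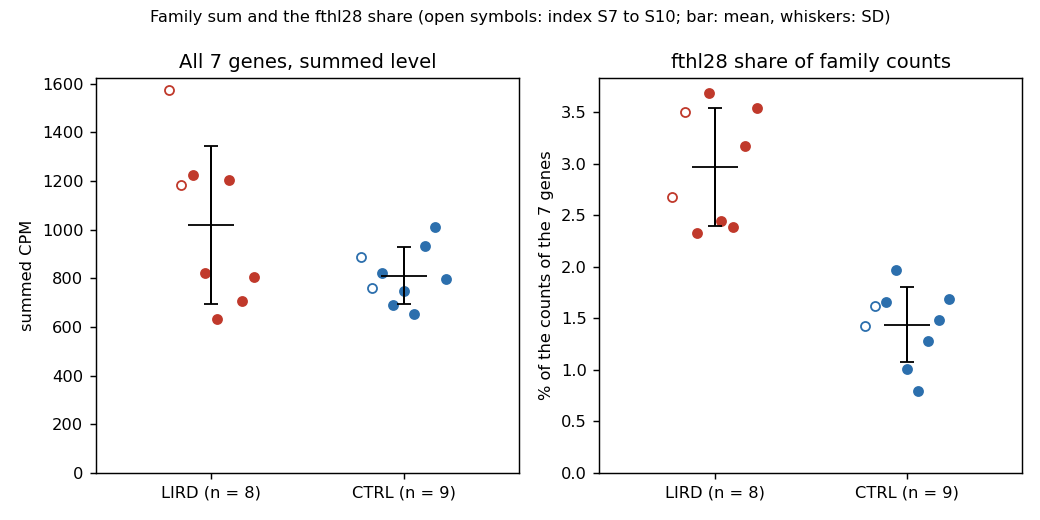
Summed CPM of the 7 genes (left panel) and the percentage of their counts that fell on fthl28 (right panel) in each library, with LIRD (n = 8) left of CTRL (n = 9). Bars give the mean, whiskers the SD and open symbols the index run S7 to S10. The summed levels overlap, at 632 to 1574 CPM in LIRD and 653 to 1011 CPM in CTRL, and the fthl28 shares do not.

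The same LIRD libraries were high or low in most members. LIRD replicates 1, 2 and 9 were each above every CTRL library in all 7 genes, whereas LIRD replicates 6 and 10 were so in fthl28 alone and lay below the CTRL median in 5 and 4 of the 7 genes. LIRD replicate 6 was the lowest LIRD library in 6 genes, with LIRD replicate 10 the lowest in fth1b. LIRD replicate 1 was the highest in 5 genes, with LIRD replicate 2 the highest in fthl29 and LIRD replicate 9 in fthl31. Among the CTRL libraries, replicate 6 was the lowest in 4 genes (fthl27, fthl28, fthl29 and fthl31). The coefficient of variation of the members was 26.5% to 45.5% in LIRD and 12.6% to 27.5% in CTRL.

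The fold changes were larger in the index run S7 to S10, with 2 LIRD and 2 CTRL libraries, than in the run S11 to S29, with 6 LIRD and 7 CTRL libraries. For fthl28 the log2 fold change was 1.76 (SE 0.13) in S7 to S10 and 1.16 (SE 0.23) in S11 to S29, where all 6 LIRD libraries were above all 7 CTRL libraries. For fthl29 it was 1.44 (SE 0.21) in S7 to S10 and 0.67 (SE 0.21) in S11 to S29. For fth1b it was 0.93 (SE 0.14) in S7 to S10 and 0.29 (SE 0.15) in S11 to S29. For fthl27, fthl30 and fth1a, the fold changes in S11 to S29 were 0.12 (SE 0.21), 0.10 (SE 0.19) and 0.10 (SE 0.18). Alone, S7 to S10 called 3891 of 22618 genes tested, 6 members among them, and S11 to S29 called 4 of 22511 with 0 members. The gene fthl28 was not called in S11 to S29 alone (FDR 0.168 in edgeR), nor with the replicate number as a block (FDR 0.162 in edgeR). It was also not called when the libraries of each of the 2 closest pairs (LIRD 5 and 11, CTRL 3 and 11) were added up. There its log2 fold change was 1.375 (FDR 0.0549 in edgeR). The difference between the runs was itself tested with an interaction term, which called 0 genes. The smallest FDR among the members was 0.297 in edgeR, for fth1b.

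**Figure D3:**
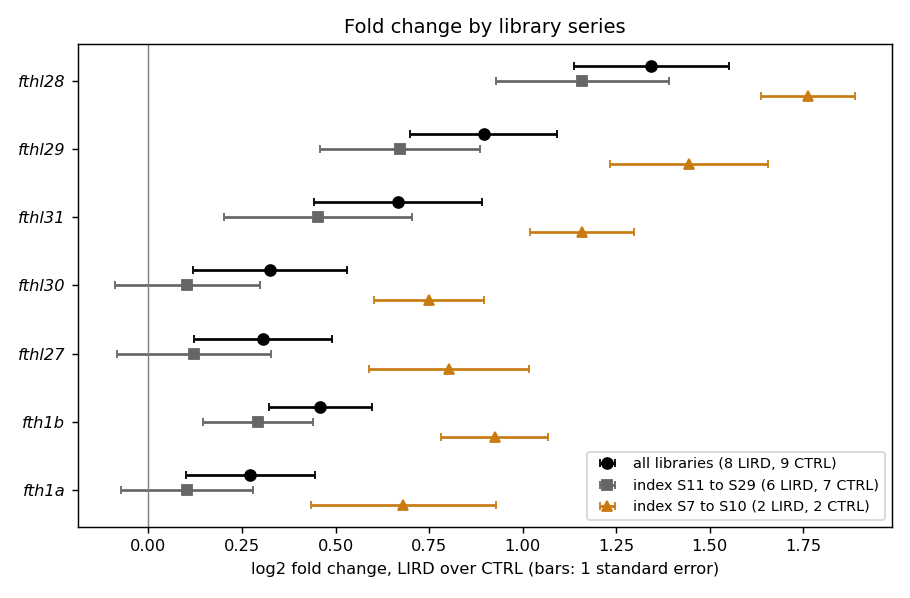
Log2 fold change of LIRD over CTRL for each member, with 1 SE, from all libraries (8 LIRD, 9 CTRL, circles), index S11 to S29 (6 LIRD, 7 CTRL, squares) and index S7 to S10 (2 LIRD, 2 CTRL, triangles). All 21 fitted values lie above 0, and fthl28 has the highest value in each of the 3 fits (1.34, 1.16 and 1.76). The fit on all libraries holds the libraries of both runs. Nothing is read from the place of fthl28, because its difference chose the family.

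Across the 17 libraries, fthl29 was the gene whose log2 CPM was most like that of fthl28 among 22502 genes (Pearson's r = 0.93), as a description over libraries that share their condition and depth. The next were rem1, bco2l, ptgdsb.2 and ENSDARG00000113150, with r between 0.84 and 0.88. The gene rem1 encodes a small GTPase of the RGK family, bco2l a carotenoid-cleaving oxygenase-like protein and ptgdsb.2 a prostaglandin D2 synthase-like lipocalin. The other members followed with r = 0.75 for fth1b (rank 50) and fthl31 (rank 53), 0.65 for fthl27 (rank 371), 0.58 for fth1a (rank 1035) and 0.48 for fthl30 (rank 2974). On deviations from the condition means, fthl29 was second (r = 0.85), behind si:dkey-209n16.2 (r = 0.86) and ahead of GUCD1, rdh5 and ANKRD1 (r between 0.83 and 0.85). Among the 21 pairs of members, r on these deviations lay between 0.50 and 0.89, with 0.89 for fthl27 with fthl31 and for fth1a with fth1b. On these deviations fthl28 and fthl29, which stand at different places in the row of fthl genes, had r = 0.85. With its neighbours fthl27 and fthl30, fthl28 had r = 0.72 and 0.50, a difference that was not tested. In LIRD, fthl29 had 7.95 ± 1.33 counts per 100 counts of fthl28 (SD, n = 8), and in CTRL 11.2 ± 2.19 (SD, n = 9). How far reads shared between these paralogs enter their likeness was not tested.

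**Figure D4:**
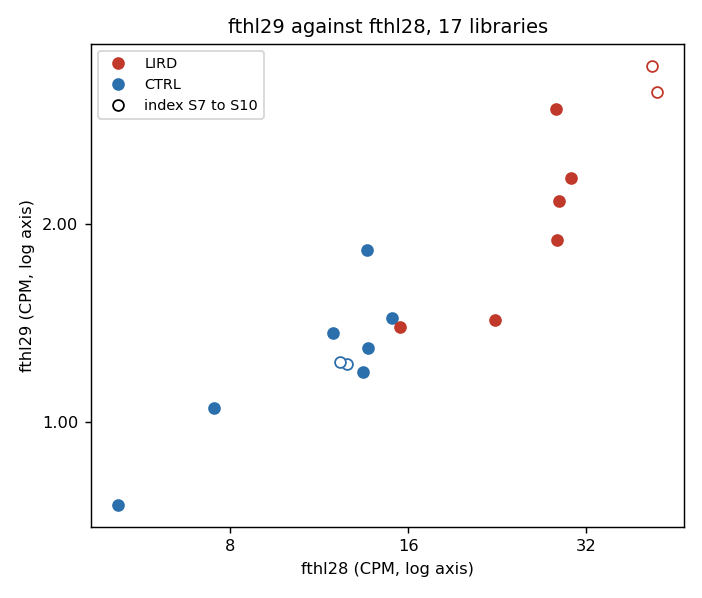
Level of fthl29 against that of fthl28 in the 17 libraries, in CPM on log axes, for LIRD (red) and CTRL (blue), with open symbols for index S7 to S10. The points run from 5.17 CPM of fthl28 in CTRL replicate 6 to 42.2 CPM in LIRD replicate 1 along 1 band, with r = 0.93.

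Of the genes beside the family in the RefSeq order, 4 were analysed, and the others were not analysed here. The gene aldh16a1, next to fthl27, had a log2 fold change of 0.16 (SE 0.10, FDR 0.697 in edgeR). On 1 side of fth1a, sh3gl3a was at -0.03 (SE 0.14, FDR 0.947 in edgeR). On either side of fth1b were plex9.2 at 0.14 (SE 0.24, FDR 0.845 in edgeR) and best1, listed as BEST1, at -0.14 (SE 0.15, FDR 0.753 in edgeR).

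Iron handling was read from 7 lists with 81 symbols, of which 76 matched the table, and which gave 78 tested genes. None of the 78 was called (0 in edgeR, smallest FDR 0.175, and 0 in DESeq2 and limma-voom). At an unadjusted p under 0.05, 10 were higher and 2 lower in LIRD, beside 4.9% and 2.74% of all genes, and 51 of the 78 had a fold change above 0. The median log2 fold change was 0.10, against 0.39 for the 6 ferritin heavy chains other than fthl28 and 0.02 for all genes. Several of these rows were listed under a symbol without the paralog letter.

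Among 10 genes of iron uptake, 4 were higher and 1 lower at that p, with a median of 0.16. The gene tfa, the serum iron carrier transferrin, was at 1369 ± 642 CPM in LIRD (SD, n = 8) and 801 ± 157 CPM in CTRL (SD, n = 9), with 6 LIRD libraries above every CTRL library and a log2 fold change of 0.77 (SE 0.23, FDR 0.352 in edgeR). It was highest in LIRD replicates 4, 1 and 9, at 2432, 2215 and 1528 CPM. These are also the LIRD libraries whose summed erythroid, macrophage (mostly the apolipoprotein gene apoc1) and liver markers each exceeded every CTRL library. The part of those cells in the tfa level was not tested. The gene cybrd1, a ferric reductase, was at 7.02 ± 1.04 CPM in LIRD and 5.11 ± 0.72 CPM in CTRL, with 7 of 8 LIRD libraries above every CTRL library (log2 fold change 0.46, SE 0.11, FDR 0.175 in edgeR). The gene tfr2, a second transferrin receptor, had 0.58 (SE 0.18, FDR 0.401 in edgeR). The 1 lower gene was tfr1b, a transferrin receptor 1 gene, at -0.15 (SE 0.07, FDR 0.640 in edgeR), named after its value was seen. Of 7 genes of iron export and its control, 0 were past that p in either direction and the median was 0.13. The exporter ferroportin, slc40a1, was at 98.2 ± 10.4 CPM in LIRD and 89.6 ± 7.71 CPM in CTRL (log2 fold change 0.13, SE 0.08). The hormone hepcidin, hamp, which triggers the degradation of ferroportin, had 0.36 (SE 0.25). The ferroxidase hephaestin, heph, had 0.23 (SE 0.16), and slc40a1, hamp and heph each had an FDR of 0.697 in edgeR.

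Ferritin itself is governed by the iron regulatory proteins, by iron chaperones and by its cargo receptor. Of 7 genes of the iron regulatory proteins and ferritin handling, 0 were past the unadjusted p in either direction, and the median was -0.06. The gene aco1, which encodes the iron regulatory protein that doubles as cytosolic aconitase, had a log2 fold change of -0.32 (SE 0.19, FDR 0.697 in edgeR). The ferritin cargo receptor ncoa4 was at 60.1 ± 5.85 CPM in LIRD and 62.4 ± 9.34 CPM in CTRL, with -0.06 (SE 0.09, FDR 0.833 in edgeR), and pcbp4, of the poly(C)-binding protein family whose members deliver iron to ferritin in mammals, had -0.09 (SE 0.12, FDR 0.785 in edgeR).

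Mitochondrial iron and iron-sulfur cluster genes had a median of 0.18 over 17 genes, with 2 higher and 0 lower at the unadjusted p. The cysteine desulfurase nfs1 had 0.25 (SE 0.07, FDR 0.294 in edgeR) and the assembly factor isca2 0.35 (SE 0.15, FDR 0.596 in edgeR). Of 2 rows listed as ISCU, the scaffold, the first had 0.39 (SE 0.19, FDR 0.667 in edgeR) and the second 0.14 (SE 0.12, FDR 0.708 in edgeR). Of 10 genes of heme breakdown and transport, 3 were higher and 0 lower, with a median of 0.10. They were hmox1, the heme oxygenase that frees iron from heme, at 52.0 ± 26.6 CPM in LIRD and 26.8 ± 12.3 CPM in CTRL (log2 fold change 0.96, SE 0.33, FDR 0.470 in edgeR), and the biliverdin reductases blvrb (0.64, SE 0.19, FDR 0.354 in edgeR) and blvra (0.40, SE 0.16, FDR 0.569 in edgeR). LIRD replicates 1, 2, 4 and 9 were the LIRD libraries above every CTRL library in blvrb, isca2 and the first iscu row. In the second iscu row, 0 LIRD libraries were above every CTRL library. These libraries were also high in the summed liver, macrophage (mostly apoc1) and pigment cell markers, and the part of those cells in these levels was not tested.

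The 14 genes of the Nrf2 pathway had a median of 0.01, with 0 past the unadjusted p in either direction. Of 2 rows of the peroxiredoxin prdx1, 1 had 0.42 (SE 0.28, FDR 0.697 in edgeR) and the other 0.16 (SE 0.25, FDR 0.829 in edgeR). The sulfiredoxin srxn1 had 0.26 (SE 0.15) and nfe2l2b, one of the zebrafish Nrf2 genes, -0.31 (SE 0.21), each with an FDR of 0.697 in edgeR. Among 13 genes of lipid peroxide defence and ferroptosis, the iron-dependent form of cell death, 1 was higher and 1 lower, with a median of 0.13. Of 2 rows listed as ALOX5, a lipoxygenase, 1 had 1.099 (SE 0.41, FDR 0.513 in edgeR) and the other 0.31 (SE 0.19, FDR 0.697 in edgeR). The cystine importer slc7a11 had -0.38 (SE 0.17, FDR 0.632 in edgeR). The glutathione peroxidase gpx4a, which reduces lipid peroxides, had 0.71 (SE 0.35, FDR 0.661 in edgeR).

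**Figure D5:**
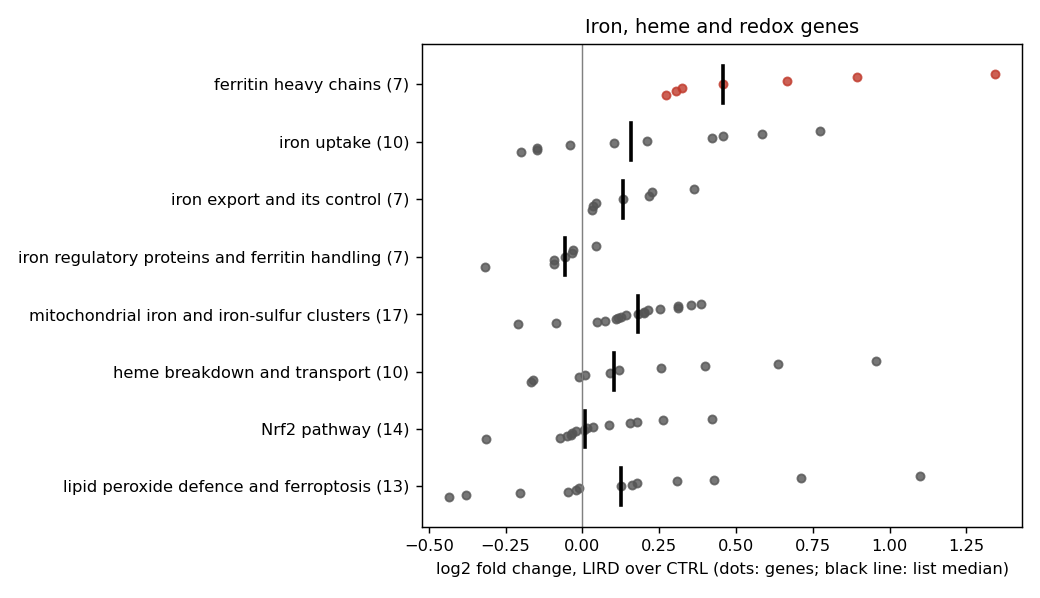
Log2 fold change of LIRD over CTRL for the 7 ferritin heavy chains (red) and the tested genes of 7 lists of iron, heme and redox genes (grey, number of genes in parentheses), with the median of each as a black line. The ferritin heavy chains have a median of 0.46, or 0.39 without fthl28, which chose the family, and the medians of the lists lie between -0.06 and 0.18.

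Of 5 lists of markers for cells other than retinal neurons and Muller glia, 3 had median log2 fold changes between 0.49 and 0.69. The macrophage and microglia list does not separate cells resident in the retina from others. Its sum was mostly 1 gene, the apolipoprotein gene apoc1. That gene had a mean of 330 CPM in a summed mean of 394 CPM in LIRD, and 233 in 283 CPM in CTRL. The macrophage sums of single libraries therefore describe mainly apoc1. Of 8 erythroid genes 7 were higher at an unadjusted p under 0.05 (median log2 fold change 0.69), with summed levels of 422 to 1401 CPM in LIRD and 271 to 525 CPM in CTRL. Of 9 macrophage and microglia genes 5 were higher (median 0.49), with 197 to 604 CPM in LIRD and 232 to 384 CPM in CTRL. Of 8 liver genes 7 were higher and 1 lower (median 0.62), with 2119 to 7546 CPM in LIRD and 1870 to 3864 CPM in CTRL. No gene of these 3 lists was called or at 0 in all libraries. LIRD replicates 1, 4 and 9 exceeded every CTRL library in all 3 sums, and LIRD replicate 2 in the liver and macrophage sums. LIRD replicate 6 exceeded every CTRL library in the erythroid sum alone, at 585 CPM. Of its members only fthl28 did so, at 15.5 CPM, the lowest value of fthl28 in LIRD. LIRD replicates 5, 10 and 11 exceeded every CTRL library in none of the 3. In these libraries fthl28 was at 30.2, 22.5 and 28.6 CPM, above the 15.003 CPM of the highest CTRL library. Nothing is read from these fthl28 values, because the separation belongs to the difference that chose the family. In LIRD replicates 5 and 11, fthl29 (2.34 and 1.89 CPM) and fthl31 (22.2 and 21.2 CPM) exceeded every CTRL library as well as fthl28, and the other 4 members did not. In LIRD replicate 10, none of the other 6 members did. The erythroid sums of LIRD replicates 5, 10 and 11, at 459, 422 and 471 CPM, were within the CTRL range and above the CTRL median of 382 CPM. So were their liver sums, at 3053, 2301.5 and 2955 CPM, against a CTRL median of 2228 CPM. The macrophage sums of LIRD replicates 5 and 11, at 328 and 324 CPM, were above the CTRL median of 282 CPM. That of LIRD replicate 10, at 197 CPM, was below every CTRL library. LIRD replicates 5 and 11 are also the closest pair of LIRD libraries. The part of these cells in the level of any member, fthl28 included, was not tested.

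The other 2 of these 5 lists had 0 genes higher at the unadjusted p. Of 4 lens genes 0 were past the unadjusted p in either direction (median -0.17), with 265 to 2012 CPM in LIRD and 309 to 2297 CPM in CTRL. Of 11 genes of pigment cells and the retinal pigment epithelium 0 were higher and 1 lower (median 0.01), with 376 to 946 CPM in LIRD and 439 to 881 CPM in CTRL. The pigment sums of LIRD replicates 1, 2, 4 and 9, at 946, 892, 917 and 910 CPM, exceeded every CTRL library. Those of LIRD replicates 5, 6, 10 and 11 did not, with the lowest, 376 CPM, in LIRD replicate 6. The part of pigment cells in the level of any member was not tested. Markers of retinal neurons and Muller glia were detected. Of 14 photoreceptor genes 1 was higher and 3 were lower (median 0.00), with 0 called. The higher one was the red cone opsin opn1lw2 (log2 fold change 0.46, SE 0.18). The lower ones were the cone phosphodiesterase subunit pde6c (-0.68, SE 0.19) and both rows listed as ARR3, cone arrestin (-0.71, SE 0.26, and -0.66, SE 0.29), and these 4 were named after their values were seen. Of 12 genes of inner retina neurons 0 were past that p in either direction (median 0.02). The Muller glia list matched 3 of its 5 symbols and gave 4 genes, of which 1 was higher and 0 lower (median 0.00). The higher one was rlbp1a, a retinoid-binding protein (0.30, SE 0.13), which may not be particular to Muller glia. The row of gfap was at -0.06 (SE 0.14), and the 2 rows listed as SLC1A3 at 0.06 (SE 0.08) and -0.15 (SE 0.09).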

How the data were processed

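Poly(A)+ RNA of LIRD and CTRL retinae was sequenced as strand-specific paired-end libraries. Per the labels, the authors used Trimmomatic 0.39 for trimming, STAR 2.7.9a for alignment to GRCz11 and featureCounts (Subread 2.0.1) for counting. The deposited values are raw counts per gene, not normalized. How multi-mapping reads were treated was not given in the sources used here. The published methods excluded outlying samples that did not cluster with their replicates, and the paper reports 9 CTRL and 8 LIRD libraries. The 17 libraries are therefore a selection from the 23 samples of the labels.

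With edgeR 4.0.16 (R 4.3.3), the counts gave TMM factors, CPM, log2 CPM (prior count 2), the genes kept by filterByExpr and quasi-likelihood tests (robust, Benjamini-Hochberg over 22503 genes, condition only). SE is the size of the log2 fold change over the square root of F. DESeq2 1.42.0 and limma 3.58.1 were alternatives, as were other filters and scalings, library series, replicate numbers as a block and each library left out. Scripts were tested on simulated data. Symbols matched 23499 identifiers, and neighbours came from RefSeq (GRCz12tu). Named were all members, per list the 3 genes with the smallest p, and the 5 genes most like fthl28 by each measure. Second rows of iscu, prdx1 and alox5 were added after values were seen. The neighbours were chosen after values were seen. Members and lists were chosen with earlier results of these data known. Depth was 70932504 to 150347385 counts, and errors are the spread between libraries.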

Additional observations from a re-analysis of the deposited data

Results flagged for a closer look

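Among 56 sets of values of the members and the named iron genes within a condition, 2 had a library that stood apart by Dixon's gap ratio, and chance gives about 1 in 20. The biliverdin reductase gene blvra was highest in LIRD replicate 6, at 3.40 CPM (gap ratio 0.724). Its companion blvrb was highest among the controls in CTRL replicate 10, at 21.4 CPM (gap ratio 0.59). No member of the ferritin heavy chain family had such a library.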

How the results depend on the processing

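All 7 members stayed higher in LIRD in all 27 alternatives. These reuse the same libraries, 17 of them with 1 left out, so the shared direction is no separate support. In S11 to S29 alone, fthl27, fthl30 and fth1a were at 0.12 (SE 0.21), 0.10 (SE 0.19) and 0.10 (SE 0.18). The log2 fold change of fthl28 lay between 1.16 and 1.76, and between 1.25 and 1.44 when 1 library was left out. Its FDR lay between 7.74e-07 (DESeq2) and 0.168 (edgeR, S11 to S29 alone). Nothing is read from these FDR values, because the difference of fthl28 chose the family. Against 9 genes called, of which 1 member, DESeq2 called 78 genes and 2 members, limma-voom 15 genes, at least 10 counts in every library 14, and the library series as a covariate 17. Index S11 to S29 alone called 4 genes and 0 members. Index S7 to S10 alone called 3891 of 22618 genes tested, 6 members and 21 of the 78 iron and heme genes. Adding up the near-identical libraries (LIRD 5 and 11, CTRL 3 and 11) gave 5 genes and 0 members, fthl28 being at an FDR of 0.0549. Leaving out 1 library gave between 7 and 39 genes and between 1 and 2 members, with 39 genes and 2 members without LIRD replicate 10 and 14 genes without CTRL replicate 8. Whether same-numbered libraries of the conditions were paired was not given in the sources used here. The r of their deviations lay between -0.56 and 0.416, over 0.1 in 5 of 7 pairs. With the replicate number as a block, 0 genes and 0 members were called, and the log2 fold change of fthl28 was 1.40 (FDR 0.162). The cause of these differences was not tested. Depth bears most on fthl29, which had 86 to 400 counts in a library.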
